A study of Homo sapiens with 5 samples.

Results

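The comparison set HEK293 cells that received DICER1 siRNA 1 against HEK293 cells that received DICER1 siRNA 2, each as 1 poly(A) RNA-seq library taken 18 h after transfection. Genes were kept where either library reached 5 CPM, the read count scaled to a fixed library size, which left 10748 of the 18257 genes in the table. ASAH2B entered just inside that level, with 3.53 CPM with siRNA 1 and 5.05 CPM with siRNA 2, and ADORA1 stayed just outside it, with 4.97 CPM with siRNA 1 and 4.33 CPM with siRNA 2. The other 3 libraries of the study, DROSHA siRNA 1, DROSHA siRNA 2 and a mock transfection labelled as the control sample, stand beside the pair wherever they help to place it. All 5 came from HEK293 T-Rex cells with FLAG:DICER1 in their FLP-IN site, a human embryonic kidney cell line that carries an inserted, tagged DICER1 gene, so the mock carries it too. The labels do not say whether the insert was switched on, and reads of the native and the inserted DICER1 cannot be told apart. As stated by the study's design text, the knockdowns were made to assess how Dicer binding regulates transcripts, with DROSHA knockdown and mock transfection as controls.

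DICER1 is the ribonuclease that cuts microRNA hairpins into mature microRNAs, and DROSHA, with its partner DGCR8, makes the cut before it in the nucleus. An siRNA directs Argonaute to a transcript that matches its guide strand along its length. Its seed, the stretch near the 5' end of the guide, can also pair with short matches in the 3' UTRs of other transcripts and lower them, as a microRNA does. That is why knockdown studies use more than 1 siRNA per gene. The sequences of these siRNAs are not given in the sources used here.

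Total counts were 7620206 with DICER1 siRNA 1 and 8285001 with DICER1 siRNA 2, and lay between 7812093 and 8736455 in the DROSHA and mock libraries. The 10 most abundant genes took between 2.90% and 2.96% of the reads in every library. VIM, KRT8, KRT18, NEFL, CDH2 and LIN28B, which HEK293 cells express, had at least 428 counts in every library, while PAX2 and NEFM stayed at 37 counts or fewer. Of 11 markers of other cell types with a row in the table, the epithelial gene EPCAM had 571 to 745 counts, the others had at most 17, and PTPRC, COL1A2 and UMOD had 0 in all 5 libraries. Each siRNA is a single library, so nothing here measures the spread between replicate cultures of 1 siRNA. No p-value is given, and every interval is an exact 95% (Clopper-Pearson) interval that covers counting error only. A gene was called past the limit where the libraries stood at least 1.5-fold apart and the counting interval of the ratio left out 1.

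DICER1 mRNA was low with both DICER1 siRNAs, and to a similar level. DICER1 had 566 counts (74.0 CPM) with siRNA 1 and 563 counts (67.7 CPM) with siRNA 2, against 2457 (282 CPM) and 2609 (332 CPM) with the DROSHA siRNAs and 2044 (242.9 CPM) in the mock. That is 30.5% of the mock with siRNA 1 and 27.9% with siRNA 2, and the ratio of siRNA 1 over siRNA 2 was 1.09 (0.972 to 1.23). DROSHA mRNA stood at 194 CPM with DICER1 siRNA 1 and 193 CPM with DICER1 siRNA 2, against 41.2 and 41.9 CPM with the DROSHA siRNAs and 191 CPM in the mock. DGCR8 had 129 CPM with siRNA 1 and 132 CPM with siRNA 2, against 188 and 173 CPM in the DROSHA libraries and 122 CPM in the mock. In all 4 knockdown libraries the targeted gene was thus the low one, as labelled, and DICER1, DROSHA and DGCR8 did not differ between the DICER1 siRNAs by more than counting error.

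Over the 10748 genes, 138 (1.28%) were past the limit between the DICER1 siRNAs, 79 (0.735%) higher and 59 (0.549%) lower with siRNA 1 than with siRNA 2. The DROSHA siRNAs, a pair that shares no library with it, were past the same limit at 444 of 10697 genes (4.15%), 302 (2.82%) higher and 142 (1.33%) lower with DROSHA siRNA 1. The SD of the log2 ratio over genes was 0.19 in the DICER1 pair and 0.27 in the DROSHA pair, where counting error alone gives 0.14 in either. Of all kept genes 91.5% lay within 0.32 of 0 in log2 ratio between the DICER1 siRNAs, against 84.4% between the DROSHA siRNAs. Across genes, which are not independent replicates, the log2 ratios of the pairs had a Pearson r of 0.015 and a Spearman rho of 0.048 over 10748 genes. Against the mock, 166 genes (1.54%) were past the limit with siRNA 1, 87 of them higher (0.809%) and 79 lower (0.735%). With siRNA 2 there were 330 (3.07%), 149 higher (1.39%) and 181 lower (1.68%). These counts share the single mock library, and the siRNA 1 library is also the shallower. Counting error alone gives an SD of the log2 ratio to the mock of 0.14 with either siRNA. The SD over genes was 0.20 with siRNA 1 and 0.25 with siRNA 2.

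The genes past the limit lay mostly at low levels, where counting error is largest. Between 5 and 20 CPM, taken as the mean over the 5 libraries, 3.78% of 2380 genes were past the limit in the DICER1 pair, against 6.72% in the DROSHA pair. Between 20 and 100 CPM the shares were 0.328% of 5481 genes in the DICER1 pair and 3.32% in the DROSHA pair. From 100 to 500 CPM they were 0.517% of 2515 genes in the DICER1 pair and 3.26% in the DROSHA pair. Above 20 CPM the genes past the limit between the DICER1 siRNAs were mostly higher with siRNA 1: 13 higher and 5 lower from 20 to 100 CPM, and 12 higher and 1 lower from 100 to 500 CPM.

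**Figure D1:**
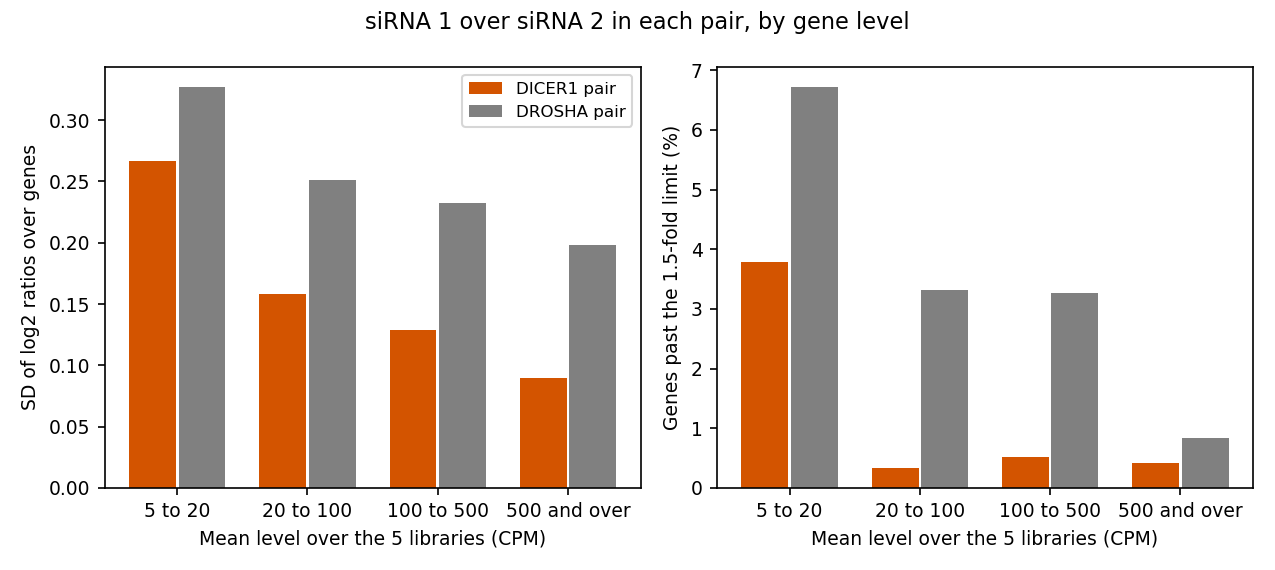
The SD over genes of the log2 ratio of siRNA 1 over siRNA 2 (left) and the percent of genes past the 1.5-fold limit (right), in 4 classes of mean CPM over the 5 libraries, for the DICER1 pair (orange) and the DROSHA pair (grey). In every class the DICER1 pair has the smaller SD and the smaller share, for example 0.328% against 3.32% from 20 to 100 CPM.

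**Figure D2:**
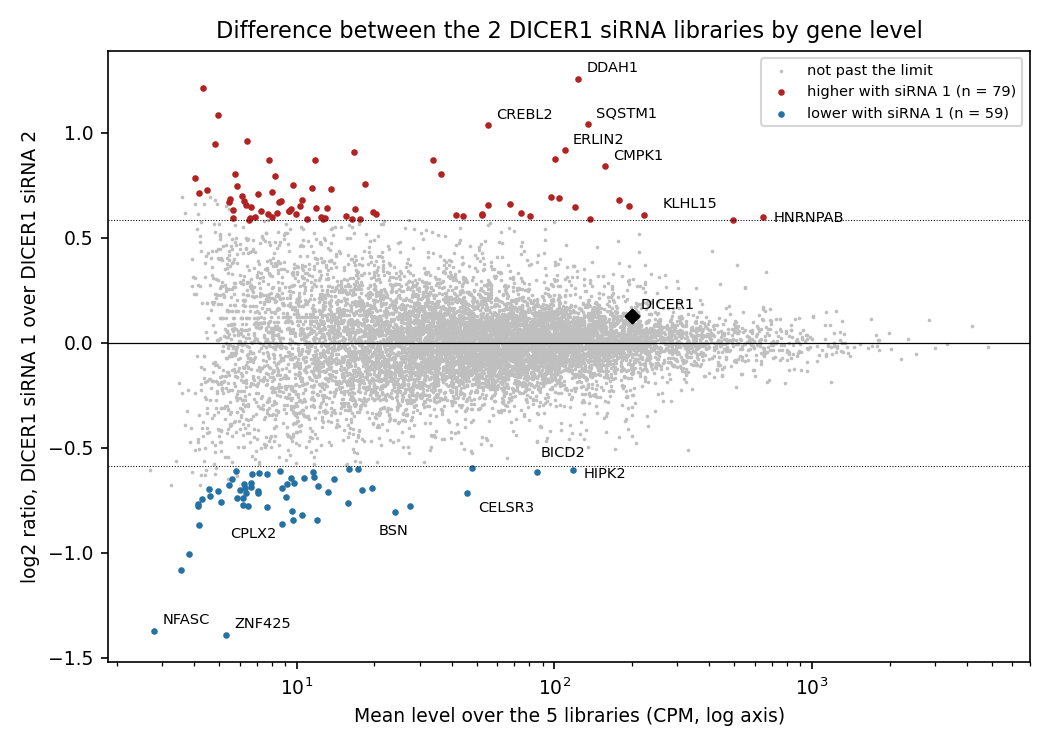
Each point is a gene with at least 5 CPM in either DICER1 siRNA library, by its mean CPM over the 5 libraries (log axis) and its log2 ratio of DICER1 siRNA 1 over DICER1 siRNA 2. Red points are the 79 genes past the limit and higher with siRNA 1, blue points the 59 that are lower, dotted lines mark 1.5-fold, and DICER1 itself (black) lies near 0.

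Of the 12 genes with the highest ratios among those of at least 10 CPM, 7 lay more than 0.32 below the mock on the log2 scale with both siRNAs, further with siRNA 2 than with siRNA 1. DDAH1, which breaks down asymmetric dimethylarginine, an inhibitor of nitric oxide synthase, had 797 counts (104 CPM) with siRNA 1 and 362 (43.5 CPM) with siRNA 2. The DROSHA libraries held 1320 and 1252 counts of DDAH1 and the mock 1335, so both DICER1 libraries lay below the other 3. The ratio of siRNA 1 over siRNA 2 was 2.39 (2.11 to 2.72), at 65.7% of the mock with siRNA 1 and 27.5% with siRNA 2.

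SQSTM1, the autophagy receptor p62, had 926 counts (121 CPM) with siRNA 1 and 489 (58.8 CPM) with siRNA 2, against 1448 and 1358 with the DROSHA siRNAs and 1291 in the mock. Its ratio was 2.06 (1.84 to 2.30), and again both DICER1 libraries lay below the rest. ERLIN2, an endoplasmic reticulum protein that takes part in degrading IP3 receptors, had 95.7 CPM with siRNA 1 and 50.6 CPM with siRNA 2, against 100 and 157 CPM with the DROSHA siRNAs and 144 CPM in the mock. For ERLIN2 the siRNA 1 library was therefore close to DROSHA siRNA 1, and only siRNA 2 stood apart (ratio 1.89, 1.68 to 2.14). CMPK1, the kinase that phosphorylates UMP and CMP, had 132 CPM with siRNA 1 and 73.5 CPM with siRNA 2, against 174 and 228 CPM with the DROSHA siRNAs and 180 CPM in the mock (ratio 1.79, 1.62 to 1.98).

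ZFP91, a zinc finger ubiquitin ligase, had 90.6 CPM with siRNA 1 and 49.3 CPM with siRNA 2, against 109 and 138 CPM with the DROSHA siRNAs and 118 CPM in the mock. SPRED1, an inhibitor of Ras signalling to the MAP kinases, had 29.7 CPM with siRNA 1 and 16.2 CPM with siRNA 2, against 41.6 and 43.2 CPM with the DROSHA siRNAs and 38.1 CPM in the mock. ZFP91 and SPRED1 had ratios of 1.84 (1.63 to 2.08) and 1.83 (1.47 to 2.28). SUSD5 had a ratio of 1.69 (1.29 to 2.23), but its 18.3 CPM with siRNA 1 and 10.8 CPM with siRNA 2 stood beside 8.83 CPM with DROSHA siRNA 1, 26.2 CPM with DROSHA siRNA 2 and 28.0 CPM in the mock, so a DROSHA library was lower still.

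Of the 138 genes past the limit, 20 were more than 0.32 below the mock on the log2 scale with both siRNAs and all 20 were lower with siRNA 2. Among them, beside those above, were CYCS, the electron carrier cytochrome c (170 CPM with siRNA 1, 108 CPM with siRNA 2, 239 CPM in the mock), and ELOVL5, a fatty acid elongase (202 CPM with siRNA 1, 132 CPM with siRNA 2, 255 CPM in the mock). HNRNPAB, an RNA-binding protein, had 594 CPM with siRNA 1 and 392 CPM with siRNA 2, against 772 CPM in the mock. Another 12 genes were more than 0.32 above the mock with both siRNAs, and all 12 were higher with siRNA 2 than with siRNA 1.

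A gene was called apart with 1 siRNA alone where it was past the limit between the siRNAs, that siRNA was at least 1.5-fold from the mock in the same direction, and the other siRNA was within 0.32 of the mock on the log2 scale. By this definition siRNA 1 alone had 8 genes higher and 13 lower, and siRNA 2 alone had 12 higher and 28 lower. Of the rest of the 138, 8 lay on opposite sides of the mock and 37 met none of these definitions. When the mean of the DROSHA libraries took the place of the mock, the counts were 6 and 8 for siRNA 1 and 15 and 24 for siRNA 2. Of the genes in these classes, only 3, 4, 7 and 12 were in the class under both baselines.

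With siRNA 1 alone, PTK2B was the only gene of the 8 higher ones to reach 10 CPM. PTK2B, the focal adhesion family kinase PYK2, had 130 counts (17.0 CPM) with siRNA 1 and 77 (9.26 CPM) with siRNA 2, against 110 and 83 with the DROSHA siRNAs and 80 in the mock. Its ratio was 1.83 (1.38 to 2.47), and siRNA 1 was the highest of the 5 libraries with DROSHA siRNA 1 next. The other 7 were HDAC9, ALS2CR8, NUDT18, ZNF296, SLC6A11, CCDC61 and FAM103A1, each with 74 counts or fewer in every library.

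Of the 13 genes lower with siRNA 1 alone, HIPK2 and LRP12 had the most reads. HIPK2, a nuclear kinase of the DNA damage response, had 747 counts with siRNA 1 and 1236 with siRNA 2, against 863 and 738 with the DROSHA siRNAs and 1280 in the mock. For HIPK2, siRNA 2 and the mock were high and the other 3 libraries low, so siRNA 1 did not stand apart from the DROSHA knockdowns (ratio 0.658, 0.600 to 0.721). LRP12, a lipoprotein receptor family member, had 130 counts with siRNA 1 and 243 with siRNA 2, against 238 and 278 with the DROSHA siRNAs and 236 in the mock. The siRNA 1 library was the only low one for LRP12, with a ratio of 0.583 (0.467 to 0.723). GALNS, a lysosomal sulfatase, showed the same order at a lower level, with 73 counts with siRNA 1 and 125 with siRNA 2, against 130 and 119 with the DROSHA siRNAs and 127 in the mock. SCN9A, a sodium channel, had 47 counts with siRNA 1 and 83 with siRNA 2, against 67 and 77 with the DROSHA siRNAs and 85 in the mock. ZNF233 and CCDC53 were the others to reach 10 CPM, with ratios of 0.601 (0.414 to 0.858) and 0.659 (0.505 to 0.855). The lowest ratio of all 10748 genes was that of ZNF425, chosen after its values were seen, with 19 counts with siRNA 1 and 55 with siRNA 2, against 50 and 44 with the DROSHA siRNAs and 51 in the mock. Its ratio was 0.382 (0.211 to 0.643).

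Of the 28 genes lower with siRNA 2 alone, CREBL2, a leucine zipper transcription factor, had the highest ratio among those that reached 10 CPM, while SLC16A6, a transporter with 39 counts with siRNA 1 and 18 with siRNA 2, had the highest of all. CREBL2 had 359 counts (47.0 CPM) with siRNA 1 and 190 (22.8 CPM) with siRNA 2, against 566 and 658 with the DROSHA siRNAs and 486 in the mock, a ratio of 2.05 (1.72 to 2.46). TSKU, a secreted leucine-rich protein, had 128 counts with siRNA 1 and 74 with siRNA 2, against 177 and 155 with the DROSHA siRNAs and 146 in the mock. C14orf119 had 270 with siRNA 1 and 168 with siRNA 2, against 375 and 324 with the DROSHA siRNAs and 356 in the mock. In all 3 genes siRNA 2 was the lowest library. ADAM9, a membrane metalloprotease that sheds surface proteins, had 88.3 CPM with siRNA 1 and 54.6 CPM with siRNA 2, against 109 and 128 CPM with the DROSHA siRNAs and 106 CPM in the mock. GALNT11, which starts O-linked glycans, had 50.9 CPM with siRNA 1 and 32.2 CPM with siRNA 2, against 66.3 and 63.8 CPM with the DROSHA siRNAs and 63.5 CPM in the mock. ANAPC10, a subunit of the anaphase-promoting complex, PLEKHF2 and EMILIN2 had ratios between 1.56 and 1.66, though for EMILIN2 the 69 counts with DICER1 siRNA 2 lay above the 56 with DROSHA siRNA 2. KLHL15 was the most abundant of the class, with 3595 counts with siRNA 1 and 2607 with siRNA 2, but the other 3 libraries ran from 2973 with DROSHA siRNA 1 to 6296 with DROSHA siRNA 2, with 4604 in the mock. The DROSHA siRNAs therefore differed more at KLHL15 than the DICER1 siRNAs did.

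Of the 12 genes higher with siRNA 2 alone, 7 reached 10 CPM. CPLX1, a complexin of the synaptic vesicle fusion machinery, had 90 counts with siRNA 1 and 176 with siRNA 2, against 79 and 63 with the DROSHA siRNAs and 85 in the mock (ratio 0.558, 0.427 to 0.721). CAMKV, a kinase-like protein of synapses, had 78 counts with siRNA 1 and 148 with siRNA 2, against 54 and 39 with the DROSHA siRNAs and 75 in the mock. MYB, a transcription factor of progenitor cells, had 82 with siRNA 1 and 139 with siRNA 2, against 83 and 89 with the DROSHA siRNAs and 83 in the mock. In each, siRNA 2 was the only high library. DNAJB5, C7orf63, RTN2 and TRIM3 had ratios between 0.582 and 0.629, and the other 5, NFASC, BCL11B, TMEM100, ZNF132 and ZBTB49, did not reach 10 CPM in any of the siRNA 1, siRNA 2 and mock libraries.

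**Figure D3:**
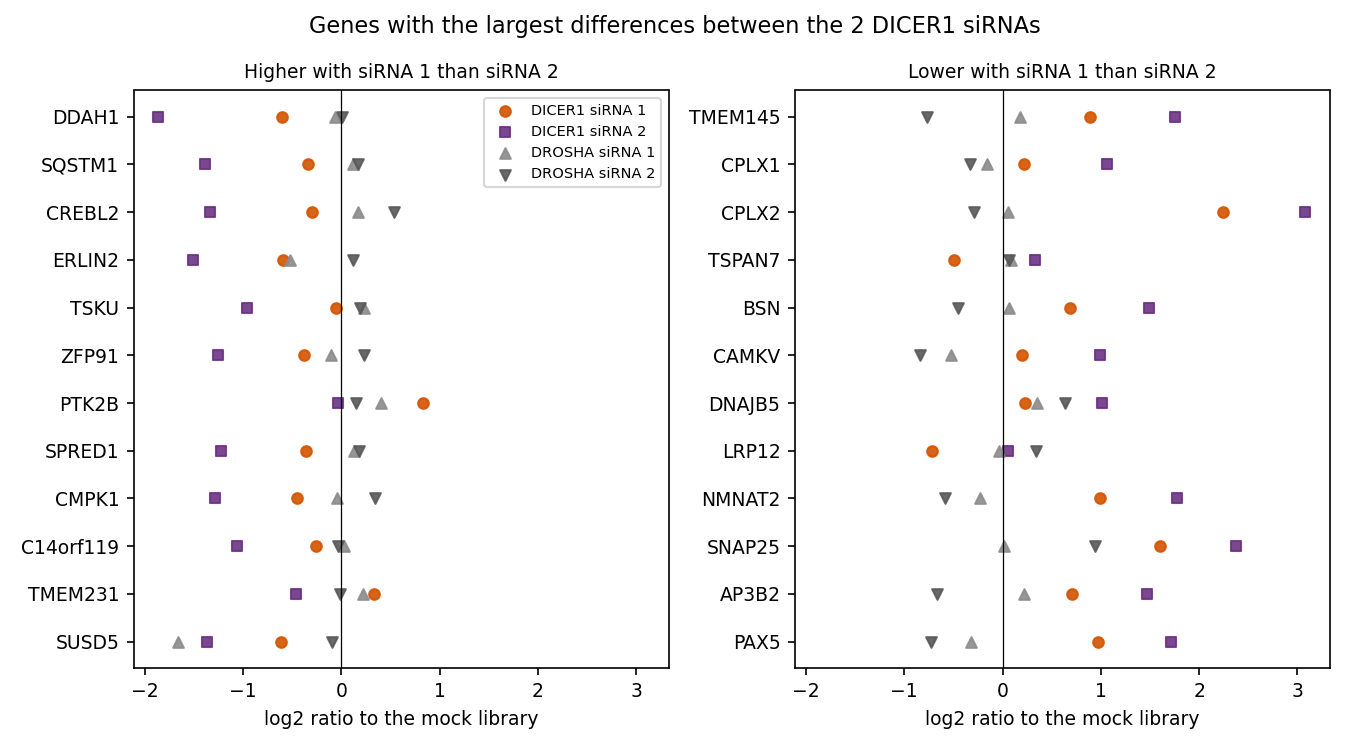
The log2 ratio to the mock library of the 12 genes with the highest (left) and the 12 with the lowest (right) ratio of DICER1 siRNA 1 over DICER1 siRNA 2, among genes past the limit with at least 10 CPM in either, for DICER1 siRNA 1 (orange circles), DICER1 siRNA 2 (purple squares) and the DROSHA siRNAs (grey triangles). Apart from PTK2B, TMEM231, TSPAN7 and LRP12, siRNA 2 lies further from the mock than siRNA 1 on the same side, as for DDAH1 (104 CPM with siRNA 1 and 43.5 CPM with siRNA 2, against 159 CPM in the mock).

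The list of neuronal and REST-repressed genes separated the siRNAs more than any of the other 20 lists. REST is the repressor that keeps neuronal genes low in non-neuronal cells. Of 26 members kept out of 44, 0 were past the limit higher with siRNA 1 and 6 were past it lower, which is 23.1% against a background of 0.549%. That background covers all levels, while from 5 to 20 CPM 43 of 2380 genes were past the limit lower. Members were kept by their level in the DICER1 libraries, where this list is high. SNAP25 and CPLX2, for example, had 2.50 and 2.97 CPM in the mock. The median log2 ratio over the 26 was -0.30, against -0.00098 over all genes, and 20 of the 26 lay below 0. Against the mock the median was 0.44 with siRNA 1 and 0.84 with siRNA 2, while the DROSHA libraries had medians of -0.000034 and -0.14. The list was known from earlier results of these data to be high in the DICER1 libraries, and the difference between the siRNAs is a difference in degree. In bulk libraries a change in the share of cells that express a gene and a change in its RNA per cell cannot be told apart.

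CPLX2, the second complexin, had 109 counts (14.3 CPM) with siRNA 1 and 213 (25.6 CPM) with siRNA 2, against 27 and 19 with the DROSHA siRNAs and 25 in the mock. BSN, a scaffold of the presynaptic active zone, had 206 with siRNA 1 and 392 with siRNA 2, against 153 and 96 with the DROSHA siRNAs and 141 in the mock. SNAP25, a SNARE of vesicle fusion, had 59 with siRNA 1 and 110 with siRNA 2, against 22 and 38 with the DROSHA siRNAs and 21 in the mock. In these 3 genes both DICER1 libraries lay above all 3 others, siRNA 2 higher than siRNA 1. CELSR3, a cadherin of axon guidance, followed with 422 counts with siRNA 1 and 754 with siRNA 2, against 268 and 196 with the DROSHA siRNAs and 239 in the mock, a ratio of 0.609 (0.539 to 0.687). SCG3, a secretory granule protein, had 95 with siRNA 1 and 158 with siRNA 2, against 33 and 20 with the DROSHA siRNAs and 43 in the mock. The ratios of CPLX2, BSN and SNAP25 were 0.558 (0.438 to 0.704), 0.572 (0.481 to 0.678) and 0.585 (0.418 to 0.808). L1CAM, an adhesion molecule of axons, and SYP, synaptophysin, had log2 ratios of -0.54 and -0.50 and did not pass the limit. DPYSL3, HCN2, KCNH2, KIF5C, STX1A and UCHL1 lay above 0, KIF5C highest at 0.21.

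Genes outside the list, described here after their values were seen, stood among the 59 lower ones, which also held genes such as ZNF425, ARSG and GALNS. UNC13A, which primes synaptic vesicles, had 73 counts with siRNA 1 and 128 with siRNA 2, against 22 and 16 with the DROSHA siRNAs and 32 in the mock. NMNAT2, the axonal NAD-synthesizing enzyme, had 62 with siRNA 1 and 116 with siRNA 2, against 30 and 21 with the DROSHA siRNAs and 34 in the mock. AP3B2, a neuronal vesicle adaptor subunit, had 137 with siRNA 1 and 253 with siRNA 2, against 111 and 54 with the DROSHA siRNAs and 92 in the mock. TMEM145 and PAX5, a transcription factor of B cells and the midbrain, followed the same order with ratios of 0.549 (0.412 to 0.723) and 0.600 (0.430 to 0.824). REST itself had 357 counts with siRNA 1 and 283 with siRNA 2, against 455 and 556 with the DROSHA siRNAs and 427 in the mock. Both DICER1 libraries were below the other 3, and the ratio of 1.37 (1.17 to 1.61) did not reach the 1.5-fold limit. Whether the level of REST had a part in the neuronal genes was not tested.

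By their medians, the remaining lists hardly told the siRNAs apart. The medians of the 20 lists other than the neuronal one lay between -0.089 (immediate early genes) and 0.12 (interferon-stimulated genes). Of all 21 lists, 17 had 0 members past the limit, beside a background of 1.28% of all kept genes. At that share lists of this size hold few members or 0, so nothing is read from the count. Of 20 interferon-stimulated genes kept, which report a response to foreign RNA, 13 lay above 0, and the 1 past the limit was on the other side: IFIT1, with 32 counts with siRNA 1 and 56 with siRNA 2. IFIT1 had 53 and 46 counts with the DROSHA siRNAs and 38 in the mock. Over the 15 members without the 3' UTR runs described further on, the interferon median was 0.020, an alternative chosen after the data were seen. The interferon list lay at the mock with either siRNA, with medians of -0.00055 with siRNA 1 and -0.0087 with siRNA 2. The 40 genes of the unfolded protein and ATF4 response had medians to the mock of 0.20 with siRNA 1 and 0.17 with siRNA 2, so both libraries stood about equally above it.

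Lists of microRNA targets gave 1 gene past the limit of 45 let-7 targets, 2 of 57 miR-17-92 targets and 0 of 42 miR-15/16 targets, few members against a background of 1.28%, from which nothing is read. E2F5, a let-7 target of the E2F family, had 160 counts with siRNA 1 and 113 with siRNA 2, against 248 and 88 with the DROSHA siRNAs and 210 in the mock, so a DROSHA library was the lowest. SQSTM1 and PLEKHA3, which binds phosphoinositides at the Golgi, were the 2 past it among 57 miR-17-92 targets, in opposite directions. PLEKHA3 had 105 counts with siRNA 1 and 185 with siRNA 2, against 187 and 180 with the DROSHA siRNAs and 150 in the mock. LIN28B, which blocks let-7 maturation and is a let-7 target, had 889 counts with siRNA 1 and 1331 with siRNA 2, against 1219 and 863 with the DROSHA siRNAs and 1076 in the mock, a log2 ratio of -0.46 that did not reach the limit. The medians were -0.032 over 45 let-7 targets, 0.023 over the miR-17-92 targets and -0.016 over 42 miR-15/16 targets.

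**Figure D4:**
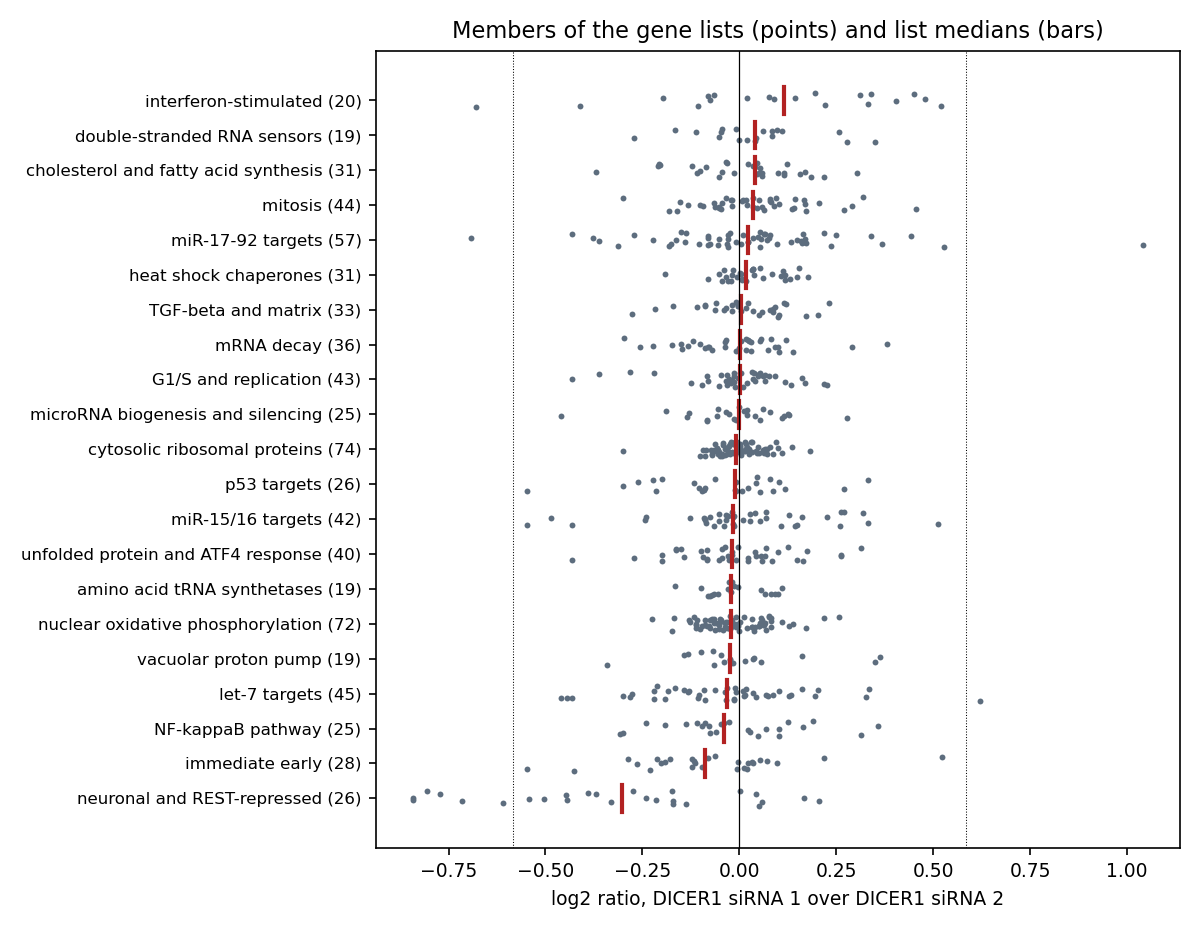
The log2 ratio of DICER1 siRNA 1 over DICER1 siRNA 2 for each kept member (points) of 21 gene lists, with the list median (red bar) and the number of members in brackets; dotted lines mark 1.5-fold. The neuronal and REST-repressed list has the lowest median, -0.30, and the other medians lie between -0.089 and 0.12.

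Sites for some microRNA families were next read from the 3' UTRs of the kept genes. The levels of these microRNAs were not measured here. The seeds, bases 2 to 8, are in capitals in these mature sequences from RefSeq (GRCh38.p14), shown as examples of these families:
hsa-let-7a-5p: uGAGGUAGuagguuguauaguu
hsa-miR-17-5p: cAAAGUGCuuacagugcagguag
hsa-miR-92a-3p: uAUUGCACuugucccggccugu
hsa-miR-19b-3p: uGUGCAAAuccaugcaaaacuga
The site CTACCTC, complementary to the let-7 seed, occurred in the 3' UTR of 1124 kept genes, whose median log2 ratio of siRNA 1 over siRNA 2 was 0.0026. For GCACTTT (miR-17-5p) it was -0.0071 over 2541 genes, for GTGCAAT (miR-92a-3p and miR-25-3p, which share a seed) -0.012 over 1286 genes, and for TTTGCAC (miR-19b-3p) -0.013 over 1641 genes. Sites for miR-16-5p, miR-10a-5p, miR-103a-3p, miR-30a-5p and miR-21-5p had medians between -0.010 and -0.0014. By its median, the miR-19b-3p group lay furthest from 0 of all these.

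Every other run of 7 bases was read in the same way, on the transcript strand alone, in the 3' UTRs of 10526 kept genes. Of 13502 runs held by at least 200 genes, CAATCTA and AATCTAA had the highest mean log2 ratio of siRNA 1 over siRNA 2 relative to genes without them, by 0.098 and 0.088. They overlap as the 8-base run CAATCTAA. The third, TAATCTA, which overlaps AATCTAA by 6 bases, had 0.055, the fourth 0.045, and the 99th percentile over runs was 0.0176. On the low side were ATCTCGT at -0.058 over 216 genes, GATATTA at -0.058 over 1056 and CTATGTT at -0.045 over 1241, with the 1st percentile at -0.0235. The runs were picked from the ratio they describe, so these values support nothing by themselves.

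The genes shown here were picked because they are past the limit and hold a run, which is in capitals, within the 3' UTR, in windows of the GENCODE 29 transcripts (GRCh38) read along the mRNA:
SQSTM1, chr5:179837210-179837239, plus strand: aaatttgtaaaCAATCTAAttaaatggcat
ZFP91, chr11:58620685-58620714, plus strand: gagtgtactacCAATCTAActaagattatt
SPRED1, chr15:38352050-38352079, plus strand: acagttgatttCAATCTAAgaaaagttaac
C14orf119, chr14:23098265-23098294, plus strand: gtaaatgttatCAATCTAAgcaatccagct
DDAH1, chr1:85321351-85321380, minus strand: gttttccttgaCAATCTActgtgccactgt
GALNT11, chr7:152122299-152122328, plus strand: gaattatgataCAATCTAcataataaagaa
TSKU, chr11:76797254-76797283, plus strand: ggaaaaaggctAATCTAAgttcctgcgggc
SQSTM1, ZFP91, SPRED1 and C14orf119 hold all 8 bases, DDAH1 and GALNT11 the first 7 and TSKU the last 7. Other genes past the limit hold neither run, among them PTK2B, OLIG2, EPHB3, ZNF425 and NFASC.

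CAATCTAA occurred in the 3' UTR of 191 genes. Their median log2 ratio of siRNA 1 over siRNA 2 was 0.10, with 72.8% above 0, against -0.0082 and 47.3% in the 8968 genes with neither 7-base run. Of the 191, 17 (8.90%) were past the limit higher with siRNA 1 and 1 was past it lower. Of the 8968, 40 (0.446%) were past it higher. The 191 genes lay below the mock in both DICER1 libraries, at a median log2 ratio of -0.16 with siRNA 1 and -0.26 with siRNA 2. In the DROSHA libraries they lay at -0.032 and -0.036, and the DROSHA pair differed by 0.0088. Genes with only the first 7 bases (281) had a median ratio of 0.047 and those with only the last 7 (975) of 0.052. In 3' UTRs under 1000 nt the median with the 8-base run was 0.24 over 15 genes, from 1000 to 3000 nt it was 0.16 over 54, and from 3000 nt on 0.068 over 122. Where CAATCTA stood in the coding sequence alone (355 genes), the median was 0.0056.

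The runs and the genes past the limit come from the same ratio, so the shares that follow are built in part into the choice and are descriptions alone. Read from the side of the genes, 38 of the 78 scanned genes higher with siRNA 1 (48.7%) held either 7-base run, against 14.8% of all scanned genes and 8 of the 58 lower ones. All 20 genes below the mock with both siRNAs held a run, 11 of them the 8-base run. From a mean of 20 CPM upward, all 26 genes higher with siRNA 1 held a run, against 15.2% of the 8084 scanned genes at that level. Under 20 CPM it was 12 of 52, against 13.5%. None of the 7 scanned genes higher with siRNA 1 alone held either run, while 14 of the 28 lower with siRNA 2 alone did. The REST 3' UTR is among those that hold CAATCTA and AATCTAA.

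**Figure D5:**
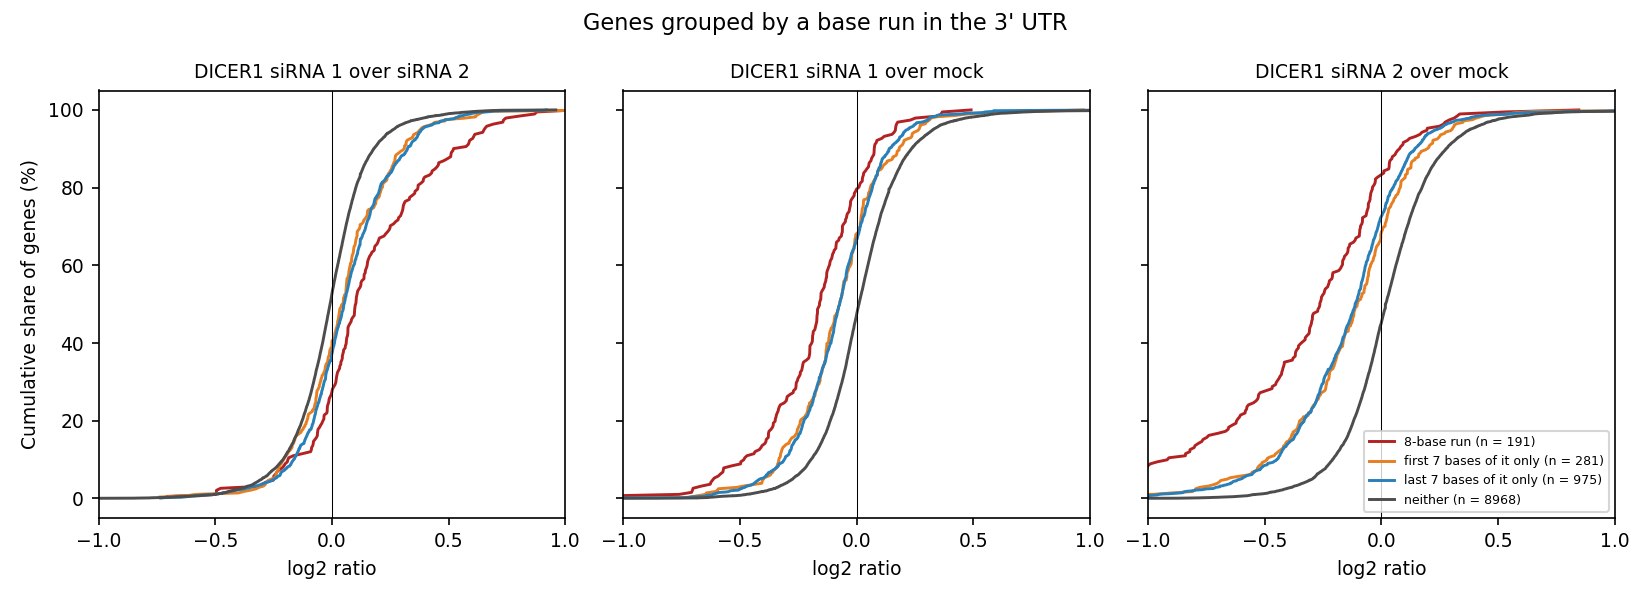
Cumulative percent of genes against the log2 ratio of siRNA 1 over siRNA 2 (left), siRNA 1 over mock (middle) and siRNA 2 over mock (right), for genes whose 3' UTR holds the 8-base run (n = 191), its first 7 bases only (281), its last 7 bases only (975) or neither (8968); the few genes with both 7-base runs apart are not drawn. The curve of the 8-base run lies to the right of the others in the left panel, with a median of 0.10, and to the left of them against the mock, with medians of -0.16 with siRNA 1 and -0.26 with siRNA 2.

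On the low side, ATCTCGT is left out of the groups that follow, although it had the lowest mean difference. These groups were chosen with it known that the DICER1 mRNA holds CTATGTT, so that match is built into the choice. The 216 holders of ATCTCGT had 0 genes past the limit higher and 2 lower (0.926%, against 0.549% of all kept genes). The 1372 genes described next held GATATTA or CTATGTT and neither of the highest runs. Their median log2 ratio was -0.068, against -0.0011 in the 7596 genes with none of these 4 runs, and they stood at -0.055 to the mock with siRNA 1 and 0.0064 with siRNA 2. In the DROSHA pair, which shares no library, the same genes had a median of -0.032. Of the 58 scanned genes lower with siRNA 1, 19 held GATATTA or CTATGTT (32.8%, against 18.9% of all scanned), and of the 13 lower with siRNA 1 alone 6 did. From a mean of 20 CPM upward it was 5 of 6, against 19.6%. The runs stood on the other side too: 15 of the 78 scanned genes higher with siRNA 1 held them (19.2%), and 8 of 26 from 20 CPM upward (30.8%). GATATTA alone had 7 holders past the limit higher and 6 lower. Windows of genes past the limit show them, from the same transcripts:
CELSR3, chr3:48637250-48637279, minus strand: gccactgcctcCTATGTTtacaggatcctc
PLEKHA3, chr2:178504712-178504741, plus strand: ttcctaaaataGATATTAagctgctgttgt
These shifts were smaller than those of CAATCTAA, and CELSR3 stood above the mock with both siRNAs.

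DICER1's own coding sequence of 5766 nt holds CTATGTT and CAATCTAA once each and side by side, from coding positions 1635 and 1642, as the minus strand of chromosome 14 shows on GRCh38:
DICER1 with CTATGTT, chr14:95116552-95116581: gaatatcgatcCTATGTTcaatctaaagga
DICER1 with CAATCTAA, chr14:95116545-95116574: gatcctatgttCAATCTAAaggaagagcaa
CAATCTAA occurred in 0.979% of the scanned coding sequences and CTATGTT in 6.93%, and 15 of 10526 (0.143%) held both anywhere. Those shares cover coding sequences of every length. A coding sequence as long as that of DICER1 is more likely to hold any given run. The runs were also looked up in DICER1 after they were picked, so the shares do not show how unusual DICER1 is. The DICER1 3' UTR holds CTATGTT at 2 further places and CAATCTAA at none. CTATGTT was only the third lowest run. The lower ones, ATCTCGT and GATATTA, occurred in neither the coding sequence nor the 3' UTR of DICER1. Of 2545 human mature microRNAs in the RefSeq table, 0 have as seed the complement of CAATCTA or of CTATGTT, and 2 have that of AATCTAA. With the siRNA sequences not given in the sources used here, whether either siRNA matches these bases was not tested.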

How the data were processed

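Poly(A) RNA of 5 HEK293 samples was sequenced from Illumina TruSeq libraries, per the labels' protocols. The tools named in the submitters' processing notes are edgeR, HTSeq, STAR and CASAVA 1.8.2, with the build hg19. The authors deposited 1 table of unscaled counts for 18257 genes, listed by symbol. No source used here gives the strand setting of the counting, so overlapping genes cannot be told apart. Each group is 1 library.

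From the deposited counts, library sizes were scaled by TMM (edgeR 4.0.16, R 4.3.3; genes of at least 1 CPM in 2 libraries). CPM is the count over the TMM-scaled library total, in the usual unit. Log2 ratios used a prior count of 0.5. Transcript sequences came from GENCODE 29 (GRCh38), matched for 18080 genes, 707 by an older symbol; 3' UTRs under 50 nt were left out. The calls were checked on simulated counts. Their spread beyond counting error was set rather than measured, so that check says nothing about replicate cultures. The members, gene lists and rules were chosen with earlier results of these data known. Named genes were DICER1, DROSHA and DGCR8, the 12 highest and 12 lowest ratios past the limit of at least 10 CPM, the 8 largest of each class apart with 1 siRNA alone, up to 3 members of each list by size, and up to 6 genes of the leading run on each side. Others were chosen after their values were seen. Alternatives covered scaling, filters, the fold limit, the baseline and the prior count.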

Additional observations from a re-analysis of the deposited data

Results flagged for a closer look

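Each of 8 genes past the limit between the DICER1 siRNAs lay more than 0.32 from the mock on the log2 scale on opposite sides, siRNA 1 on one and siRNA 2 on the other. The difference was not tested, since each siRNA is 1 library, and 7 of the 8 had fewer than 100 counts in all 5 libraries. TSPAN7, a tetraspanin, had the most reads: 56 counts with siRNA 1 and 108 with siRNA 2, against 87 in the mock, a log2 ratio of siRNA 1 over siRNA 2 of -0.82. DNAJC30, a mitochondrial co-chaperone, had 50 counts with siRNA 1 and 87 with siRNA 2, against 69 in the mock, a log2 ratio of -0.67. SHISA8 had a log2 ratio of -1.08, PALM3 of -0.87, PFKFB4, which sets fructose 2,6-bisphosphate, of -0.78 and CKMT1B, a mitochondrial creatine kinase with a near-identical paralog that counting may not separate, of -0.76. On the other side were TMEM231, a protein of the ciliary transition zone, at 0.80 (77 counts with siRNA 1 and 48 with siRNA 2, against 67 in the mock) and PDIA2, a protein disulfide isomerase, at 0.73.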

How the results depend on the processing

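No direction turned among the named genes past the limit or among the base runs under the alternatives. Direction was not checked for the list medians or the other named genes, some of which lie close to 0. With DESeq2 1.42.0 size factors or library totals in place of TMM, every count stayed within 1.5 times its value. The ratios of named genes stayed within their 95% counting intervals. Each list median stayed within a 95% interval taken from the ranked ratios of its members. No paired analysis was possible because each siRNA is a single library and the siRNA numbers do not pair samples. The counts followed the filter and the fold limit, which by construction change how many genes enter. At 1 CPM there were 97 genes lower with siRNA 1, 23 lower with siRNA 1 alone, and 20 higher and 44 lower with siRNA 2 alone; with no filter these were 104, 24, 21 and 45. At 10 CPM there were 51 higher and 36 lower with siRNA 1, 1 higher and 5 lower with siRNA 1 alone, and 7 higher with siRNA 2 alone. At 2-fold there were 5 higher and 4 lower, with 0 and 1 for siRNA 1 alone and 1 and 2 for siRNA 2 alone. Asking that the other siRNA lie within 1.1-fold of the mock left 6 higher and 14 lower with siRNA 2 alone. The mean of the DROSHA libraries as baseline, chosen after the data were seen, gave 8 lower with siRNA 1 alone; the cause was not tested. The share of genes higher with siRNA 1 that hold either run was 66.7% of 51 at 10 CPM and 100% of 4 at 2-fold. Without the genes holding either run, the neuronal median was -0.35 over 24 members. After a linear fit on length and GC content of the UTR and on expression was removed, CAATCTA differed by 0.10 and GATATTA by -0.051. Depth limits genes of low level most: 90 of the 138 genes past the limit had a mean of 5 to 20 CPM.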
